A study of Mus musculus with 5 samples.

Results

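Interferon-stimulated genes were examined as a set of 48 named genes among 55413 genes (21938 of them protein-coding) of the GENCODE annotation of GRCm38, and all 48 were found in that annotation. Their promoters were scored in ChIPseq peak lists of acetylated histones from memory CD8+ T cells, of which there were 2 from WT mice and 3 from TPdh-/- mice. The study states more ChIPseq libraries per genotype than were analysed here. A gene counted as having a promoter peak where a peak lay within 3000 bp of any of its annotated transcription start sites. In TPdh-/- mice a floxed Pdha1 allele, the E1 alpha subunit gene of the pyruvate dehydrogenase complex, was crossed with a Cd4-Cre transgene, which is active from the thymus onwards in the cells that become CD4+ and CD8+ T cells. The labels call these samples PDH_Mutant and the controls wildtype, and the sources do not say whether the WT mice carried the Cre transgene or which sex each library came from. By the methods of the study, mice of both sexes on a B6 background, aged 8 to 12 weeks, were used, and memory-type cells were made from OT-I T cells that were activated with OVA peptide and then cultured with IL-15. All libraries were precipitated with antibody ab1191, described in the methods as recognising acetylated lysine of histones and in the labels as acetyl K18. Nothing in the labels says that replicates came from separate mice, so p-values measure only the spread between these samples.

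Interferons are cytokines that signal through JAK kinases to transcription factors of the STAT and IRF families. Type I interferon activates a complex that contains STAT2 and IRF9 and binds the interferon-stimulated response element (ISRE), and interferon gamma acts through gamma-activated sites (GAS). The genes they switch on encode sensors of foreign nucleic acid, proteins that block viral RNA or membranes, GTPases that attack the vacuoles of intracellular pathogens, and the IRF and STAT factors themselves. Acetylated histones mark nucleosomes beside active promoters and enhancers.

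The sequences of 6 promoters are shown first because they span the patterns found, from a peak in every library to a peak in none. Each window runs from 250 bases before to 50 bases after the start site in RefSeq on GRCm38.p6, 5′ to 3′ on the strand of the gene. Capitals mark the letters GAAANNGAAA, taken as ISRE letters, and TTCNNNGAA, taken as GAS letters, on either strand, and neighbouring or overlapping matches run together. Bst2 (chr8:71537423-71537722, minus strand) and Gbp7 (chr3:142530086-142530385, plus strand) had a peak over the window in all 5 libraries. Igtp (chr11:58199306-58199605, plus strand) had a peak in both WT libraries alone, and at its neighbour Irgm2 (chr11:58214727-58215026, plus strand) a peak entered the first bases of the window in the 3 TPdh-/- libraries and stopped just short of it in WT replicate 2. Ifit1 (chr19:34640639-34640938, plus strand) had a peak in WT replicate 1 alone, and Ifit3 (chr19:34583279-34583578, plus strand) had none.
Bst2: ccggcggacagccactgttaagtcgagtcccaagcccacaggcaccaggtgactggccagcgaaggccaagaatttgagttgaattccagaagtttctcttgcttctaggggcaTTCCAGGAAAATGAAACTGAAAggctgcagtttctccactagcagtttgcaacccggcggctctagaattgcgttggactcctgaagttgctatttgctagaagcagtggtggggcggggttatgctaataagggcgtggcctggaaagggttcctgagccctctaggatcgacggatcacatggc
Gbp7: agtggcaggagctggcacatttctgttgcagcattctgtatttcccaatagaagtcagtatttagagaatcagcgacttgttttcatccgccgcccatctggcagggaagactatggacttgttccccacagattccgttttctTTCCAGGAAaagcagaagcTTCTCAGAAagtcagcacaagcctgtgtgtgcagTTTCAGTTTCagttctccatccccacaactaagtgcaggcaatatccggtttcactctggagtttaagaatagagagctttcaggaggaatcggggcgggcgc
Igtp: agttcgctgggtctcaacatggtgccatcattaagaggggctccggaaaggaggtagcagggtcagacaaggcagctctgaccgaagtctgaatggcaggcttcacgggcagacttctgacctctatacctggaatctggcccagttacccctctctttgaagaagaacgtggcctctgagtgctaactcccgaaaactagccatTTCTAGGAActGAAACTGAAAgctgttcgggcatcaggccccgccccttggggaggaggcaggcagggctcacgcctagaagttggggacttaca
Irgm2: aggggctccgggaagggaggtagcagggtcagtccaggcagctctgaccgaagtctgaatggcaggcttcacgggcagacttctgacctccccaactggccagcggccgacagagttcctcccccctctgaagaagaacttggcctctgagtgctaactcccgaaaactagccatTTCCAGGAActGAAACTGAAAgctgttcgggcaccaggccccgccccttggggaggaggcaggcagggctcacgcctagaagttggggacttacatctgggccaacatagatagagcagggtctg
Ifit1: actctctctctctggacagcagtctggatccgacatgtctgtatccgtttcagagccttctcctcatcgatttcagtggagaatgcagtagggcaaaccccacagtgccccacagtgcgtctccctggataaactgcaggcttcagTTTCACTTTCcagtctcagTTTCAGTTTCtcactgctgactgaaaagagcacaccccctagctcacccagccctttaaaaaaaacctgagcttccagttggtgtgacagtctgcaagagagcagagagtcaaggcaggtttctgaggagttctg
Ifit3: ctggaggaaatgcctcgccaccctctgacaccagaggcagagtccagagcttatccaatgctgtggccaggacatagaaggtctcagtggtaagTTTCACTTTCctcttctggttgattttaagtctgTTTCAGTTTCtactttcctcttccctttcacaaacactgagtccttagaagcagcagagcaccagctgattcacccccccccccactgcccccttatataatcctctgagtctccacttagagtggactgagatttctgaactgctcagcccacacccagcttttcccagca

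In the lists as deposited, promoters of interferon-stimulated genes carried a peak more often than protein-coding genes did on average in every library, and both shares moved with the length of the peak list. In WT replicate 1, 35 of the 48 genes (72.9%) had a promoter peak, where 42.1% of all protein-coding genes had one. In WT replicate 2 the number was 27 (56.3%), beside 24.8% of protein-coding genes. In TPdh-/- replicate 1 it was 20 genes (41.7%) beside 15.3%, in TPdh-/- replicate 2 it was 24 genes (50%) beside 16.5%, and in TPdh-/- replicate 3 it was 30 genes (62.5%) beside 27.9%. The share among interferon-stimulated genes was 1.73 and 2.27 times that of coding genes in the WT libraries and 2.72, 3.03 and 2.24 times in TPdh-/- replicates 1, 2 and 3. The mean share was 64.6% ± 11.8 for WT (SD, n = 2) against 51.4% ± 10.5 for TPdh-/- cells (SD, n = 3), a difference of 13.2 percentage points. The groups overlapped, since TPdh-/- replicate 3 lay above WT replicate 2. Over all protein-coding genes the difference was 13.5 percentage points. With only peaks of −log10 q of at least 5, these differences were 19.8 percentage points for the members and 10.1 for coding genes, and the share in TPdh-/- replicate 1 was below that of coding genes, at 2.08% beside 2.75%.

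**Figure D1:**
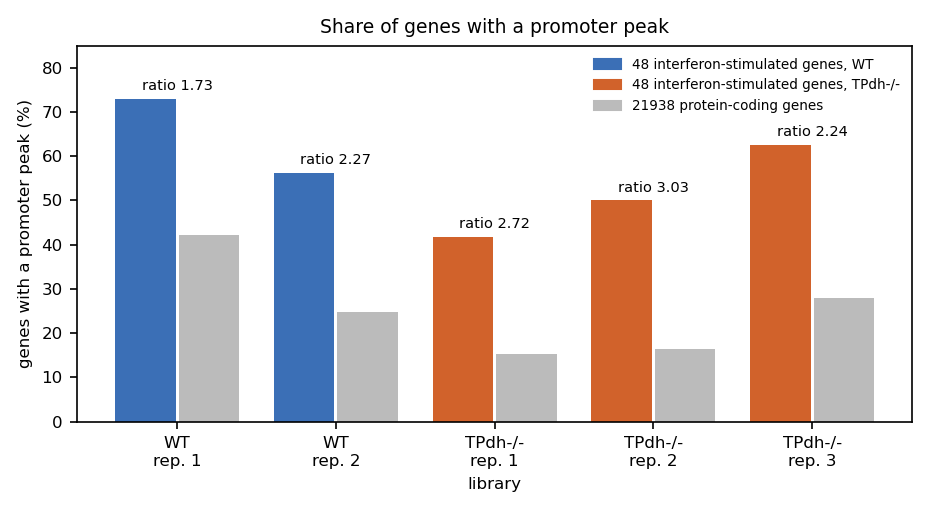
Percentage of genes with a promoter peak in each library, for the 48 interferon-stimulated genes (blue in WT, orange in TPdh-/-) and for 21938 protein-coding genes (grey), with the ratio of these shares written above each pair. The coloured bar is the taller of the pair in all 5 libraries, and the ratio lies between 1.73 and 3.03.

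The lists held 15962 and 8859 peaks in WT replicates 1 and 2 and 4920, 5419 and 9418 in TPdh-/- replicates 1, 2 and 3. Sequencing depth cannot be read from a peak list, and a promoter missing from a short list was not called at that depth rather than shown to lack acetylation. When every list was reduced to its 4920 strongest peaks, 18 and 19 interferon-stimulated genes had a promoter peak in the WT libraries and 20, 22 and 21 in the TPdh-/- libraries, and the difference in mean share turned to -5.21 percentage points. At that length 19.9% and 17.1% of protein-coding genes had one in WT and 15.3%, 15.8% and 18.7% in TPdh-/-. In the lists as deposited but without WT replicate 1, the longest list, the difference was 4.86 percentage points for the members and also 4.86 for protein-coding genes. In peak lists of cultured cells, fewer acetylated cells and less acetylation per cell cannot be told apart. Of 8 T cell genes, most of which CD4+ T cells also express, 8 and 6 had a promoter peak in WT and 3, 5 and 6 in TPdh-/- cells. Of the genes for the chains of CD8 itself, Cd8b1 had one in all 5 lists and Cd8a in WT replicate 1 alone. None of 4 myeloid and none of 2 NK cell markers had one in any list, while Cd4 had one in both WT lists and in no TPdh-/- list. Of 4 B cell and of 2 erythroid markers, 1 each had one, in WT replicate 1 alone.

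Of the 48 genes, 17 had a promoter peak in all 5 libraries, 35.4% of the set, where 10.9% of protein-coding genes did. They were Adar, Ddx58, Ifih1, Zbp1, Irf9, Dtx3l, Parp9, Parp14, Bst2, Isg20, Gbp2, Gbp3, Gbp7, Irgm1, Irgm2, Rtp4 and Xaf1. Igtp was the only member with a peak in both WT libraries and no TPdh-/- library, 1 of 48 (2.08%) beside 2.21% of protein-coding genes. No member had a peak in all 3 TPdh-/- libraries and no WT library, a pattern shown by 0% of protein-coding genes. Another 12 members (25%) had no promoter peak in any library, beside 56.7% of protein-coding genes. Ifit1, Rsad2, Dhx58 and Gbp9 had a promoter peak in WT replicate 1 alone (8.33% of the set, beside 11.2% of protein-coding genes), and Parp12 had one in TPdh-/- replicate 2 alone. The remaining 13 members had a peak in 2 to 4 libraries that included at least 1 of each genotype.

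**Figure D2:**
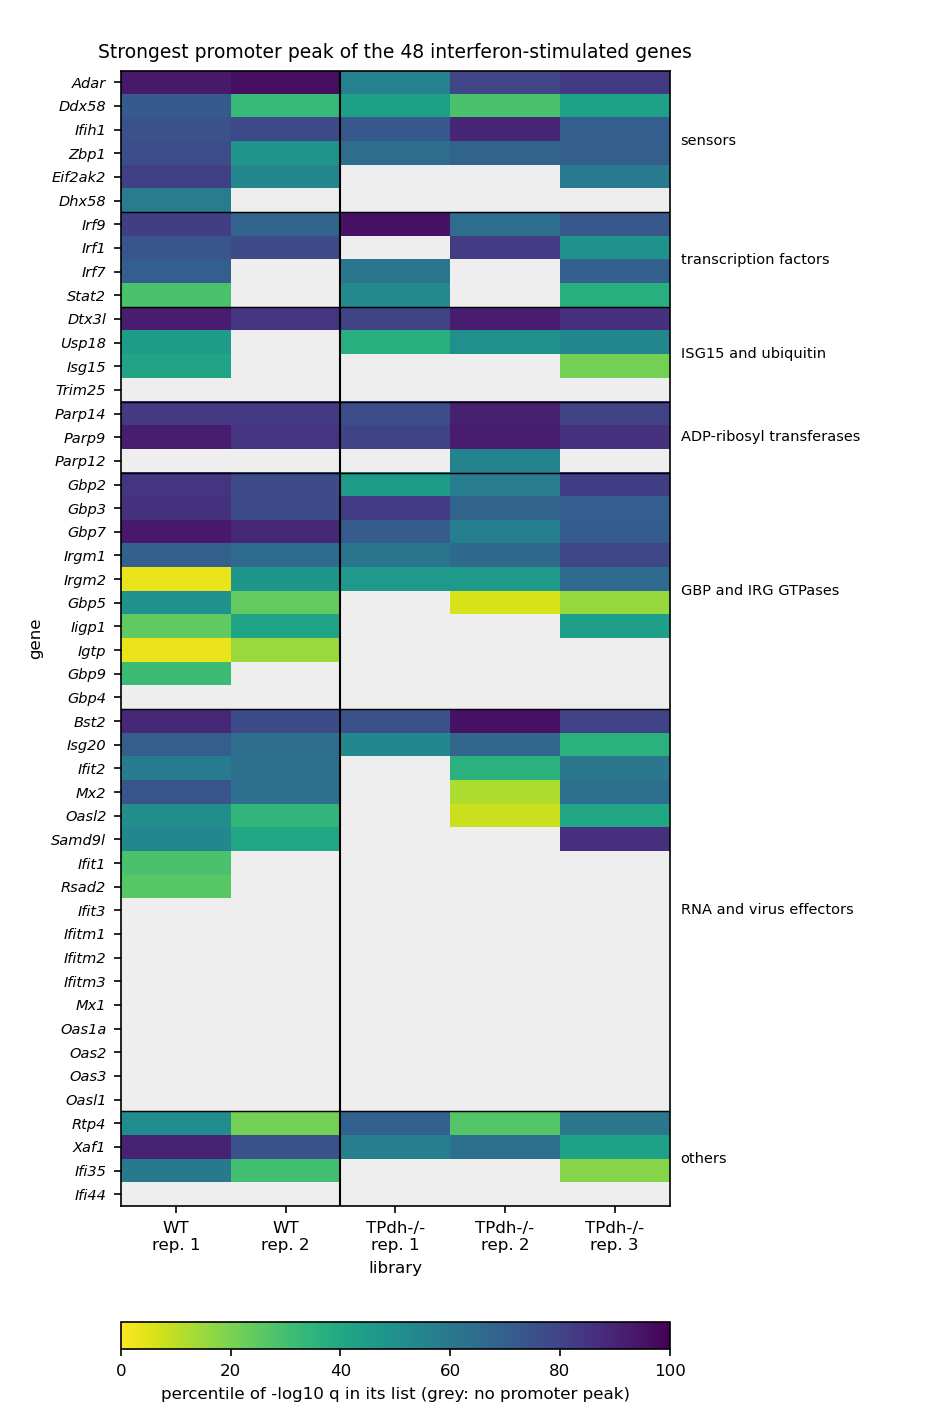
Strongest promoter peak of each of the 48 genes (vertical axis, grouped by role) in each library (horizontal axis), coloured by its percentile by −log10 q within its own list and grey where there was no promoter peak. Sensors and GTPases are mostly filled in, and the block of grey among the RNA and virus effectors holds 9 of the 12 genes without a peak in any library.

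Sensors of foreign or misplaced nucleic acid had peaks at most of their promoters. Of the 6, there were 6 and 5 with a promoter peak in the WT libraries and 4, 4 and 5 in TPdh-/- replicates 1, 2 and 3. Adar, the RNA editing enzyme that converts adenosine to inosine, had the peaks of the group with the highest −log10 q in both WT libraries. Its fold enrichment (the deposited ratio of peak signal to the background that MACS2 estimated) was 3.26 and 3.68 in WT replicates 1 and 2 and 2.95, 3.05 and 3.17 in TPdh-/- replicates 1, 2 and 3. By −log10 q within each list these peaks stood at the 93.0 and 95.7 percentiles in WT and at the 55.9, 79.1 and 83.0 percentiles in TPdh-/-. Both WT values of fold enrichment lay above all 3 TPdh-/- values. Percentiles ran higher in WT for most promoters, by a median of 9.21 points over the 2390 protein-coding promoters with a peak in all 5 libraries and in 82.5% of them, so they are given as ranks within a list and not read as a difference between the genotypes. The strongest peak was at the downstream of its annotated starts in every library, while a peak at the upstream start, which covered base 89715022 of chromosome 3, was called in WT replicate 1 and TPdh-/- replicate 3 alone. Ifih1, which encodes the RNA sensor MDA5, had a fold enrichment of 2.97 and 3.03 in WT and 2.96, 3.27 and 2.85 in TPdh-/-. Its percentiles were 75.3 and 77.7 in WT and 72.6, 89.4 and 70.2 in TPdh-/-, so that the highest and the lowest of the 5 values were both from TPdh-/- cells. Ddx58, which encodes RIG-I, and Zbp1, a sensor of Z-form nucleic acid, also had a peak in all 5 libraries, and Eif2ak2, which encodes the kinase PKR, had a peak in both WT libraries and TPdh-/- replicate 3. Dhx58, which encodes LGP2, had a peak in WT replicate 1 alone.

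In the lists as deposited, the 4 transcription factor genes each had a peak in at least 3 libraries, and none of them separated the genotypes. With only peaks of −log10 q of at least 5, Irf1 had a peak in both WT libraries and in no TPdh-/- library. Its −log10 q in TPdh-/- replicate 2 was 4.97, just under that threshold, and in TPdh-/- replicate 3 it was 3.33. The percentiles of these peaks were 82.1 and 48.5, where those in WT were 73.8 and 77.0. The share of protein-coding genes with that pattern was not computed at this threshold. Irf9, the DNA-binding subunit of the complex that recognises the ISRE, had a peak in all 5 libraries. Its fold enrichment was 2.86 and 2.75 in WT and 3.64, 2.64 and 2.79 in TPdh-/-. Its percentiles were 81.6 and 68.2 in WT and 95.1, 63.9 and 72.8 in TPdh-/-, with the highest value in TPdh-/- replicate 1, the shortest list. Stat2, its partner, and Irf7, which amplifies the type I interferon response, shared a pattern, with a peak in the libraries WT replicate 1 and TPdh-/- replicates 1 and 3 and none in the other two. Irf1, a factor induced by interferon gamma, lacked a peak in TPdh-/- replicate 1 alone. Its peaks stopped 253 and 272 bp upstream of the start site in the WT libraries and 478 and 369 bp upstream in TPdh-/- replicates 2 and 3, and none reached the CpG-rich windows around its starts, which held 32 and 43 CpG in 300 bases.

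Genes of the ISG15 pathway, in which the ubiquitin-like protein ISG15 is attached to other proteins, and of ADP-ribosylation differed from each other in pattern. Parp9, an ADP-ribosyl transferase family member, and Dtx3l, the ubiquitin ligase that partners it, are divergent neighbours on chromosome 16, and a shared peak covered the start sites of both in every library. Its fold enrichment was 3.21 and 3.17 in WT and 3.14, 3.26 and 3.15 in TPdh-/-. The percentiles were 91.8 and 84.6 in WT and 79.3, 91.9 and 85.9 in TPdh-/-, and these were the highest mean percentiles of the set. The log2 difference of WT from TPdh-/- was 0.00 with a 95% interval of -0.20 to 0.20 by limma. Parp14, on the same stretch of chromosome 16, had a fold enrichment of 2.48 and 2.76 in WT and 2.72, 3.14 and 2.72 in TPdh-/-. Its percentiles were 82.9 and 83.1 in WT and 76.5, 91.2 and 80.6 in TPdh-/-, which overlapped. An intergenic peak between Parp14 and Dtx3l, 18967 to 19141 bp from the Parp9 start, stood still higher in each list, at the 98.8 and 98.6 percentiles in WT and at the 97.8, 97.5 and 93.7 percentiles in TPdh-/-. Parp12, a further ADP-ribosyl transferase, had a peak in TPdh-/- replicate 2 alone, with a fold enrichment of 2.90 at the 55.1 percentile. Usp18, the protease that removes ISG15, lacked a peak in WT replicate 2 alone. The Isg15 promoter was called at the 41.5 percentile in WT replicate 1 and at the 21 percentile in TPdh-/- replicate 3, where the peak covered the start site of the neighbouring gene AW011738 and not that of Isg15. Trim25, a ubiquitin ligase of the RIG-I pathway, had no promoter peak, but a peak lay 4849 and 4801 bp from its start in WT replicates 1 and 2, over an exon of the noncoding RNA gene Gm11496, and the nearest peak was 48426 bp or more away in each TPdh-/- library.

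GTPases of the guanylate-binding protein (GBP) and immunity-related GTPase (IRG) families act on the membranes around intracellular pathogens. Their mean share was 85% in WT and 60% in TPdh-/-, a difference of 25 percentage points. For all protein-coding genes it was 33.4% and 19.9%, a difference of 13.5 from a lower starting share. The difference for these GTPases was 16.7 with peaks of −log10 q of at least 2 and 28.3 with peaks of at least 5. At the former threshold, 39.4% and 21.5% of protein-coding genes had a peak in WT and 12.0%, 13.5% and 24.9% in TPdh-/-. At the latter, 24.0% and 8.67% had one in WT and 2.75%, 4.23% and 11.6% in TPdh-/-. Of the 10 GTPases, in the lists as deposited, 9 and 8 had a promoter peak in WT and 5, 6 and 7 in TPdh-/- replicates 1, 2 and 3. In the lists of equal length the numbers were 3 and 5 in WT and 5 in each TPdh-/- library, a difference of -10 percentage points, and Igtp, Iigp1, Gbp5 and Gbp9 had no promoter peak left. Of protein-coding genes, 19.9% and 17.1% had one in WT at that length and 15.3%, 15.8% and 18.7% in TPdh-/-. In the Gbp cluster of chromosome 3, which spans 150031 bp with 3000 bp on either side, peaks numbered 5 in each WT library and 4, 4 and 5 in TPdh-/- replicates 1, 2 and 3. They covered 5.24% and 4.27% of the locus in WT and 3.27%, 3.14% and 4.35% in TPdh-/-. Gbp7 had a fold enrichment of 2.92 and 3.06 in WT and 2.82, 2.47 and 2.53 in TPdh-/-. Its percentiles were 93.0 and 88.8 in WT and 70.7, 57.0 and 70.8 in TPdh-/-, and both WT values of fold enrichment lay above all TPdh-/- values. Gbp2 had a fold enrichment of 2.66 and 2.58 in WT and 2.32, 2.32 and 2.52 in TPdh-/-. Its percentiles were 85.1 and 76.9 in WT and 45.7, 57.7 and 81.6 in TPdh-/-, so the genotypes were apart in fold and overlapped in percentile. Gbp3 had a fold enrichment of 2.75 and 2.69 in WT and 2.91, 2.64 and 2.57 in TPdh-/-. Its percentiles were 85.4 and 76.6 in WT and 82.4, 67.3 and 70.0 in TPdh-/-, which overlapped. Gbp5 had weaker peaks, at the 48.7 and 24.2 percentiles in WT and the 6.01 and 15.5 percentiles in TPdh-/- replicates 2 and 3, and none in TPdh-/- replicate 1. A further peak of the cluster, between Gbp3 and Gbp2 and 15658 to 15994 bp from the start of Gbp2b, was called in every library but TPdh-/- replicate 2. In the second Gbp cluster, on chromosome 5, Gbp9 had a promoter peak in WT replicate 1 alone and Gbp4 had none.

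Igtp and Irgm2 lie side by side on chromosome 11, and each had a promoter peak in both WT libraries. At the Igtp start a peak was called in WT replicate 1 with a fold enrichment of 1.69 and in WT replicate 2 with 2.00. These are weak peaks, at the 2.88 and 15.0 percentiles of their lists, and no TPdh-/- library had a peak there. An annotated Irgm2 transcript also begins beside the Igtp start, and the promoter peak counted for Irgm2 in WT replicate 1 is this same peak. Around the downstream start of Irgm2, peaks ended 251, 254 and 244 bp short of the start in TPdh-/- replicates 1, 2 and 3 and 290 bp short in WT replicate 2. In WT replicate 1 the nearest peak at that start was 3264 bp away, in an intron of Irgm2 and just outside the promoter window. The Igtp and Irgm2 windows printed above hold ISRE letters that begin 11 bases after GAS letters in both. Set so that these letters meet, 184 of 270 bases (68.1%) were the same, with the longest identical run 61 bases. The authors kept only reads that mapped uniquely, and the part of sequence shared by these neighbours in their peaks was not tested. Irgm1, on another stretch of chromosome 11, had a peak in all 5 libraries, and Iigp1, on chromosome 18, had a peak in both WT libraries and TPdh-/- replicate 3.

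Among the 17 effectors that act on viral RNA or virus particles, promoter peaks were scarcer than over the whole set. Their mean share was 41.2% in WT and 25.5% in TPdh-/-, beside 64.6% and 51.4% for the set. For protein-coding genes it was 33.4% and 19.9%. Of the effectors, 8 and 6 had a promoter peak in WT and 2, 5 and 6 in TPdh-/- replicates 1, 2 and 3. Of the 17, 9 had none anywhere, beside 56.7% of protein-coding genes. Bst2, which encodes tetherin, the protein that holds budding virions at the cell surface, had the highest mean percentile of the group. Its fold enrichment was 3.22 and 3.12 in WT and 2.90, 3.52 and 2.97 in TPdh-/-. Its percentiles were 88.9 and 77.1 in WT and 75.3, 95.1 and 79.7 in TPdh-/-, with TPdh-/- replicate 2 the highest of the 5. Isg20, an exonuclease, also had a peak in all 5 libraries, and Ifit2, Mx2 and Oasl2 had a peak in every library but TPdh-/- replicate 1. Samd9l, a restriction factor of poxviruses, had a peak in both WT libraries and in TPdh-/- replicate 3, where it reached the 86.2 percentile, above that of Bst2 there, against 53.6 and 40.4 in WT. Rsad2, which encodes viperin, had its only peak in WT replicate 1, at the 25.9 percentile. Mx2 is annotated as a polymorphic pseudogene in this strain's reference.

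The clustered effector families differed by locus. In the Ifit locus of chromosome 19, whose products bind viral RNA ends, there were 8 and 2 peaks in WT and 0, 1 and 2 in TPdh-/- replicates 1, 2 and 3, covering 8.69% and 2.16% of the locus in WT and 0%, 0.958% and 1.90% in TPdh-/-. Ifit2 held the promoter peak that recurred there, in 4 libraries. Ifit1 had its peak in WT replicate 1 alone at the 28.8 percentile, and the same peak covered the start of Ifit1bl2. At Ifit3 the only peak over the gene lay at an exon 4801 bp from the start, in WT replicate 1. In the Oas locus of chromosome 5, whose enzymes make the second messenger that activates RNase L, none of Oas1a, Oas2 and Oas3 had a promoter peak, but a peak at the starts of the neighbours Oas1c and Oas1b was present in all 5 libraries. Its percentiles were 75.2 and 75.4 in WT and 83.2, 55.7 and 86.7 in TPdh-/-, and it lay 34300 bp or more from the nearest start of the 3 genes. At the Oasl pair, Oasl2 had a peak in 4 libraries and Oasl1 in none. Mx1, of the dynamin-like GTPase family, had no promoter peak, yet a peak 4976 to 5103 bp from its start was called in all 5 libraries, at percentiles from 17.2 to 49.4. The Ifitm cluster of chromosome 7, whose products hinder fusion of virus with host membranes, held 3 and 2 peaks in WT and 3, 0 and 2 in TPdh-/-, all between its genes. The nearest peak to Ifitm2 in all 5 libraries was 13285 to 13757 bp away at the start of Pgghg. Ifi44, of unclear function, had its nearest peak 399123 bp or more away.

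**Figure D3:**
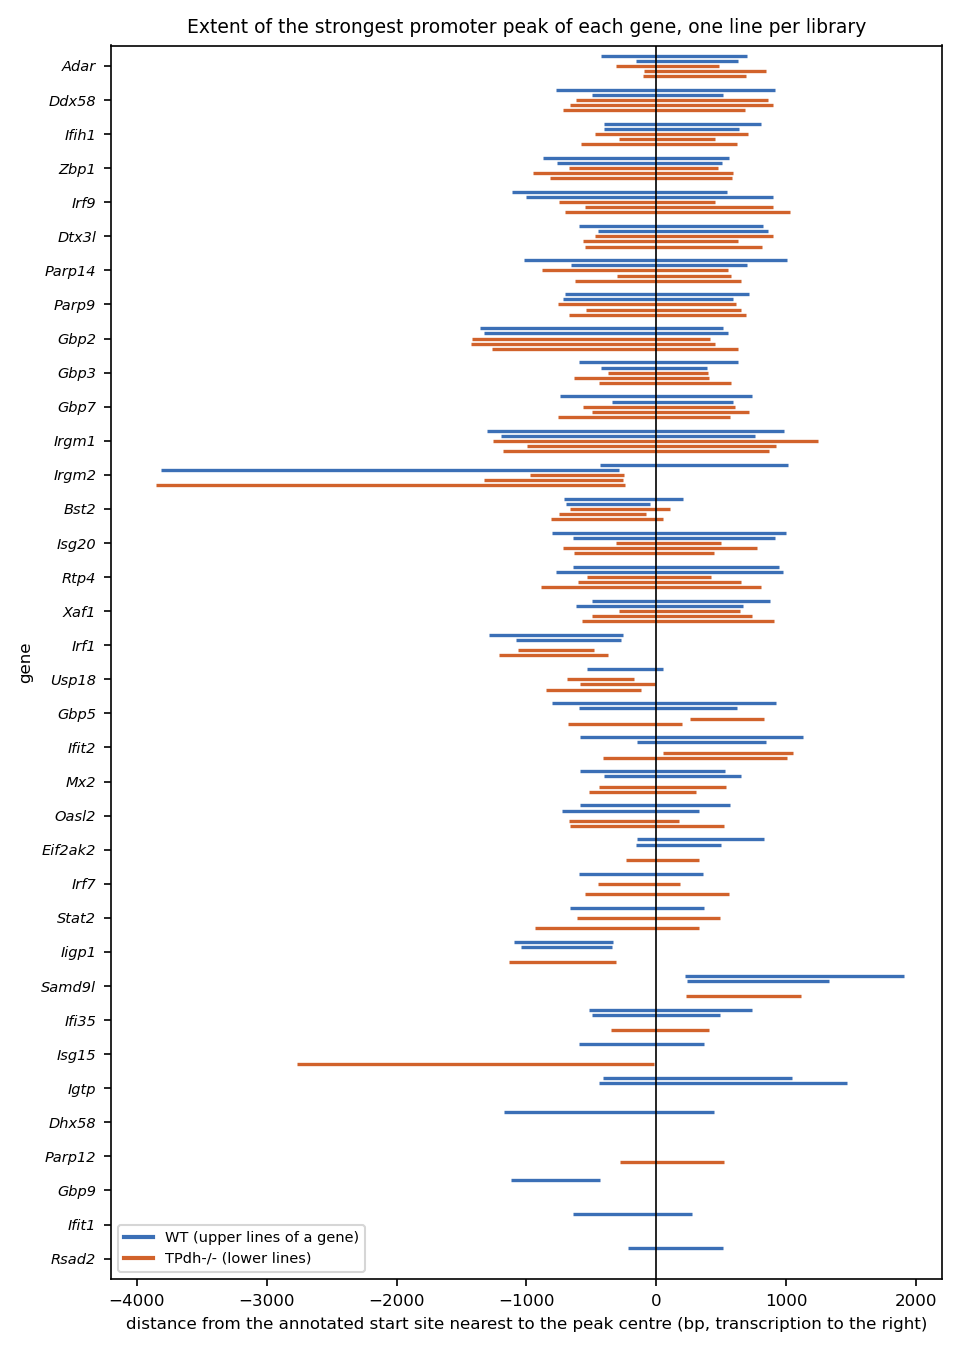
Extent of the strongest promoter peak of the 36 genes that had one, drawn relative to the annotated start site nearest to the peak centre (horizontal axis in bp, transcription to the right), with a line per library, blue for WT and orange for TPdh-/-. Most lines cross the start site, while those of Irf1 lie upstream and those of Samd9l inside the gene. Those of Iigp1 lie in an intron, upstream of an internal start. Others that stop short of the start include those of Gbp9, of Usp18 in TPdh-/- and of Irgm2 outside WT replicate 1.

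Where interferon-stimulated genes had a promoter peak, it covered a start site in 88.6% and 81.5% of them in WT replicates 1 and 2 and in 90%, 75% and 80% in TPdh-/- replicates 1, 2 and 3. For protein-coding genes these shares were 79.9% and 72.8% in WT and 71.1%, 73.8% and 76.2% in TPdh-/-. The member peaks farthest inside the promoter window were at Irf1, 478 bp from a start, and those nearest outside it were at Irgm2 (3264 bp, WT replicate 1), Ifit3 and Trim25 (4801 bp). The median percentile of the members' strongest promoter peaks was 69.7 and 64.2 in WT and 62.6, 63.7 and 64.4 in TPdh-/-. Over protein-coding genes it was 66.9 and 62.9 in WT and 60.8, 63.0 and 63.7 in TPdh-/-, close to those of the members. At promoters with a peak in all 5 libraries, the median fold enrichment of the 17 members was 2.75 in both WT libraries and 2.82, 2.64 and 2.56 in TPdh-/-, below that of the 2390 coding promoters in each library (3.00 and 2.95 in WT and 2.90, 2.85 and 2.93 in TPdh-/-). Their median percentile was 82.9 and 76.6 in WT and 68.9, 67.0 and 70.8 in TPdh-/-, below that of coding promoters except in TPdh-/- replicate 1 (88.9 and 79.3 in WT and 67.8, 70.9 and 81.6 in TPdh-/-).

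Fold enrichment was compared between the genotypes at promoters with a peak in every library, which left out any promoter that a library lacked. Among 2390 such protein-coding promoters, limma found 0 (0%) with an adjusted p under 0.05, and 212 (8.87%) had an unadjusted p under 0.05. Of the 17 interferon-stimulated genes among them, none had an unadjusted p under 0.05. These 17 are not separate measurements throughout, since Parp9 and Dtx3l share a peak and so have the same values. Irgm2 was scored at the Igtp start in WT replicate 1 and near its downstream start in the other libraries. The smallest adjusted p of the 17 was 0.56 by limma, at Xaf1, a proapoptotic protein that counteracts XIAP. The fold enrichment of Xaf1 was 3.47 and 2.99 in WT and 2.92, 2.95 and 2.50 in TPdh-/-, with both WT values above all TPdh-/- values. Its log2 difference was 0.21 ± 0.11 (SE), with a 95% interval of -0.01 to 0.43. Leaving out WT replicate 1 gave 0.11, and leaving out TPdh-/- replicate 3 gave 0.14. For Adar, Gbp7 and Gbp2 the log2 difference was 0.18 ± 0.10, 0.20 ± 0.10 and 0.14 ± 0.10 (SE), and that of Adar was 0.09 without WT replicate 2. In these 4 of the 17 genes both WT values lay above all TPdh-/- values, beside 15.8% of the 2390 promoters. In 0 of the 17 did they lie below, beside 8.08% of the promoters. For each of the 4 the exact permutation test gave a two-sided p of 0.2, the smallest that 2 against 3 libraries allow. The median log2 difference over the 17 was 0.00, where that over the 2390 promoters was 0.03.

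**Figure D4:**
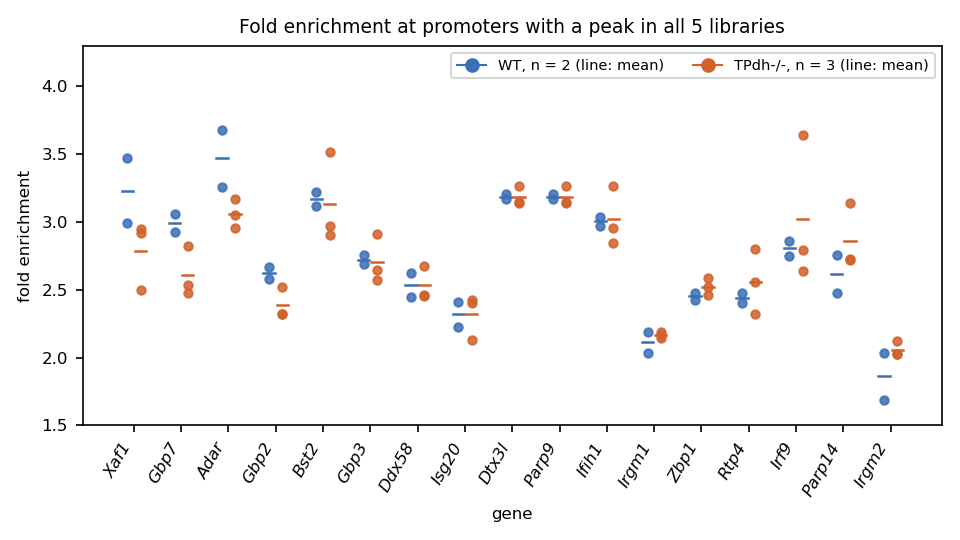
Fold enrichment (vertical axis, deposited ratio, axis starting at 1.5) of the strongest promoter peak of the 17 genes with a peak in all 5 libraries, with a point per library and a line at the group mean, ordered by the log2 difference of WT from TPdh-/-. The points of the genotypes are apart at Xaf1, Gbp7, Adar and Gbp2 and overlap at the others.

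The promoters of the set were examined for features that the peaks did not define. RefSeq windows were at hand for 36 of the 48 genes and for 16522 protein-coding genes. ISRE letters were found in 20 of the 36 members (55.6%) and in 4.02% of all genes. GAS letters were found in 13 members (36.1%) and in 9.02% of all genes, and both occurred in 8 members (22.2%) and in 0.714% of all genes. Of the 20 members with ISRE letters, 15 had a peak in at least 1 library and 8 in all 5, and of the 16 without them, 12 had a peak in at least 1 library and 5 in all 5. Of all 665 genes with these letters, 300 had a peak in at least 1 library and 100 in all 5, and of the 15857 without them, 7179 and 1806. The pair of ISRE matches in Ifit1 begins 104 and 85 bases before the start and that in Ifit3 begins 156 and 122 bases before it, and yet neither gene had a peak outside WT replicate 1. A match of letters is a description of the window and not a site of binding.

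The windows of interferon-stimulated genes were poor in CpG, with a median of 7 CpG where the median over all genes was 15. Of the members with fewer than 10 CpG, 24 in number, 66.7% and 50% had a promoter peak in WT and 33.3%, 37.5% and 54.2% in TPdh-/-. Of all 6381 genes with so few CpG, 14.7% and 9.0% had a peak in WT and 5.64%, 5.81% and 9.54% in TPdh-/-. Of the 12 members with 10 or more CpG, 83.3% and 75% had a peak in WT and 58.3%, 75% and 83.3% in TPdh-/-. The 10141 genes of that class had a peak in 62.6% and 37.0% in WT and in 22.8%, 24.6% and 41.8% in TPdh-/-.

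**Figure D5:**
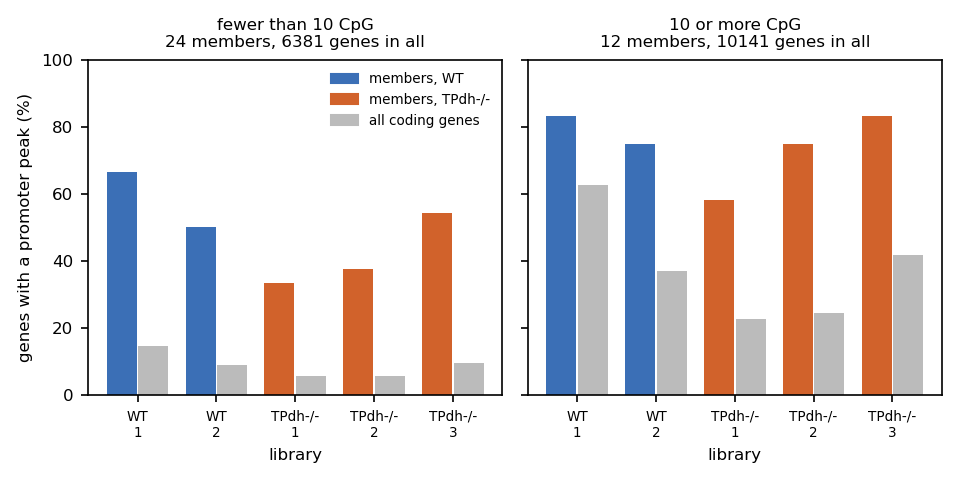
Percentage of genes with a promoter peak (vertical axis) in each library (horizontal axis), with members in colour and all protein-coding genes in grey, for promoter windows with fewer than 10 CpG on the left and 10 or more on the right. Among CpG-poor promoters the coloured bars run from 33.3% to 66.7% and the grey bars from 5.64% to 14.7%.

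The genes that make and transmit the interferon signal, 25 in number, had a promoter peak in 18 and 12 cases in WT and in 10, 12 and 15 cases in TPdh-/- replicates 1, 2 and 3, and 8 had a peak in all 5 libraries. Of protein-coding genes, 42.1% and 24.8% had one in WT, 15.3%, 16.5% and 27.9% in TPdh-/-, and 10.9% in all 5. For the pathway genes the mean share was 60% ± 17 for WT (SD, n = 2) against 49.3% ± 10.1 for TPdh-/- cells (SD, n = 3), a difference of 10.7 percentage points that fell to -1.33 without WT replicate 1 and to -13.3 with lists of equal length. Over protein-coding genes the difference was 13.5, and 4.86 without WT replicate 1. With lists of equal length, 19.9% and 17.1% of these had a peak in WT and 15.3%, 15.8% and 18.7% in TPdh-/-. Of the receptor genes, Ifnar1, Ifnar2 and Ifngr1 had a peak in every library and Ifngr2 in WT replicate 1 alone. Jak1 had a peak in every library but WT replicate 2, Jak2 in both WT libraries and TPdh-/- replicate 3, and Tyk2 in none. The inhibitors Socs1 and Socs3 had none. Tmem173, which encodes the adaptor STING, its kinase Tbk1, Irf8, Myd88 and Nlrc5, the activator of MHC class I genes, had a peak in all 5. Ifng, the interferon that T cells themselves release, had a peak in WT replicate 1 alone, with a fold enrichment of 1.94 at the 7.28 percentile, and Ifnb1 had none. Of the 8 genes with a peak in every library, 0 passed the limma test, as did 0 of the 2390 promoters tested.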

How the data were processed

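ChIPseq peak lists of acetylated histones from 2 WT and 3 TPdh-/- libraries were analysed. The authors aligned reads to GRCm38/mm10 with BWA 0.7.17, kept uniquely mapping reads outside blacklisted regions with SAMtools 1.15.1, and called broad peaks for each library with MACS2 2.2.6. They tested differential enrichment between the genotypes with DiffBind 3.2. The study reports fewer acetylated sites in TPdh-/- cells, and lower acetylation of selected target genes by ChIP PCR. It also reports less accessible chromatin at those genes by ATACseq, and less histone acetylation, H3K27 included, by proteomics. From RNAseq it names interferon gamma among the upstream regulators, which it reads as an inflammatory effector phenotype. The peak lists do not hold the reads, so the DiffBind comparison was not repeated. Fold enrichment at promoters called in every library is a different measure. It is a ratio to background within a library, so it cannot be set against the total acetylation measured by proteomics. An input control is not given in the sources used here. The deposited lists give a fold enrichment (a linear ratio), −log10 p and −log10 q for each peak, and the authors' integer score, which was not used.

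Promoter peaks lay within 3000 bp of a start site in GENCODE M21. The strongest had the highest −log10 q, and percentiles are ranks by −log10 q within a list. Log2 fold enrichment was compared with limma 3.58.1 in R 4.3.3, with Benjamini-Hochberg adjustment over 2390 promoters, and single promoters by exact permutation tests over 5 libraries. Counting used Python 3.11.15. Scripts were tested on simulated data. Not every gene of the pathway list is reported here. The members and lists were chosen with earlier results of these data known. Genes named with values by library are those called in both WT libraries and no others or in TPdh-/- libraries alone, the 10 with the highest mean percentile among those with a peak in all 5 libraries, and clustered genes by locus. Xaf1, Samd9l, Isg15, Rsad2 and Gbp5 were named with values after these were seen. Alternatives were thresholds of −log10 q, lists of equal length, other promoter definitions, scalings of fold, leaving out libraries and a replicate block.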

Additional observations from a re-analysis of the deposited data

How the results depend on the processing

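Read depth is unknown and the lists differ in length, which limits every comparison of presence. The difference in mean share between WT and TPdh-/- reversed with lists of equal length, to -5.21 percentage points for the interferon-stimulated genes and -13.3 for the interferon pathway genes, and fell to 1.92 for all protein-coding genes. These lists gave 0 interferon-stimulated genes with a peak in both WT libraries alone and 11 in all 5 libraries. At a −log10 q of at least 2 the first number was 2. At a −log10 q of at least 5 the first was 3 (Irf1, Gbp3 and Gbp7) and the second 0, with 1 member called in TPdh-/- replicate 1. The highest TPdh-/- values of Irf1, Gbp3 and Gbp7 lay just under that threshold, at 4.97, 4.91 and 4.99. Leaving out each library in turn, the difference ran from 4.86 to 21.5 percentage points for the members, from -1.33 (without WT replicate 1) to 22.7 for the pathway and from 4.86 to 22.2 for coding genes. The number in both WT libraries alone then ran from 1 to 5, with 5 without WT replicate 2 or TPdh-/- replicate 3, the number in all 5 from 17 to 22, and the promoters called by limma from 0 to 2, with 2 without WT replicate 2 and 1 without TPdh-/- replicate 1. With promoters called in at least 4 libraries limma called 1. With a replicate block over replicates 1 and 2, 5 members had a peak in WT alone, the difference was 18.8 percentage points for the members, 16 for the pathway and 17.5 for coding genes, and limma called 0. Leaving out each library in turn, 2390 to 3083 protein-coding genes had a peak in all libraries left. The share of protein-coding genes with a peak in WT alone was not computed under these alternatives. Nor was the share with a peak in all 5 libraries at these thresholds or list lengths. The counts of members are therefore not read as a result about the set. The replicate numbers are not stated to pair the samples, and the differences between replicates 1 and 2 correlated across promoters between genotypes with r = -0.025. Promoters within 1000 bp, peak midpoints and start sites of coding transcripts alone left the number of libraries with a peak within 1.5 times for all 48 members, and the gene body did so for 47, with Ifit3 the exception. The cause of these changes was not tested. Lists of equal length have the same number of peaks by construction, so they cannot separate a difference in depth from a difference in acetylation.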
